A study of Homo sapiens with 6 samples.

Results

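The cytosolic ribosomal protein genes encode the protein components of the 60S (large) and 40S (small) subunits of the ribosome outside mitochondria. The members were every row of the count table whose symbol is RPL or RPS followed by a number, with an A, X or Y form where one exists, together with RPLP0, RPLP1, RPLP2 and RPSA. This gave 79 members of 23250 gene rows, 46 of the 60S subunit and 33 of the 40S subunit. Mitochondrial ribosomal proteins, the RPS6K kinases, RPS27L, the paralogues with an L suffix and rows named as pseudogenes were left out by the same rule.

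RNA was sequenced from OCI-LY1, an established human diffuse large B cell lymphoma line that depends on the transcriptional repressor BCL6. All 6 libraries carry siRNA against endogenous BCL6 together with an ectopic BCL6 construct, so no untreated or siRNA-only library was compared here. The mutant rescue received a BCL6 with mutated RD2, its second repression domain (3 libraries), and the WT rescue received wild-type BCL6 (3 libraries). Each library held between 26298456 and 27574867 counts, and the rescues were compared in 1 cell line.

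Ribosomal proteins are made in matched amounts, because each ribosome needs nearly every member in a single copy, and surplus subunits are degraded. Their mRNAs are among the most abundant in growing cells and most begin with a terminal oligopyrimidine (TOP) tract, a C followed by a run of pyrimidines at the cap, through which mTOR signalling controls their translation. In B cells, ribosome production rises with the growth programme driven by MYC.

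Start sites of members at both ends of the range of responses, and of members known from disease, are shown first because the TOP tract is the sequence feature that defines this class of mRNA. Each line runs from 30 bases before to 20 bases from the annotated RefSeq start on GRCh38.p14, 5′ to 3′ on the gene's strand, and capitals mark the tract, here a C followed by at least 4 pyrimidines that starts within 5 bases of the annotated start.
RPL13A (chr19:49487578-49487627, plus strand): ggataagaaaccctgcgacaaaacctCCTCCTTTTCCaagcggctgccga
RPS24 (chr10:78033833-78033882, plus strand): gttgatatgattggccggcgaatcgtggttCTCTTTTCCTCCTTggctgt
RPS3 (chr11:75399488-75399537, plus strand): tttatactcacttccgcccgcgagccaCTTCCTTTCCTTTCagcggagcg
RPS9 (chr19:54200828-54200877, plus strand): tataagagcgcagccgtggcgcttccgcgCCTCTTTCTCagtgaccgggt
RPL4 (chr15:66504836-66504885, minus strand): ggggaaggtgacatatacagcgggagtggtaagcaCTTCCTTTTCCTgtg
RPS6 (chr9:19380217-19380266, minus strand): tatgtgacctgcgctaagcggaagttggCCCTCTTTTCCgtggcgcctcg
RPLP0 (chr12:120201092-120201141, minus strand): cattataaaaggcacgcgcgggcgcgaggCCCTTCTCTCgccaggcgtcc
RPS19 (chr19:41860225-41860274, plus strand): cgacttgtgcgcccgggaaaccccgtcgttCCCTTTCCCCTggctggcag
RPS14 (chr5:150449720-150449769, minus strand): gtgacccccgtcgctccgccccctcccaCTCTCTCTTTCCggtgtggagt
RPL11 (chr1:23691776-23691825, plus strand): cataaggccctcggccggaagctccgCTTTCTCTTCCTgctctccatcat
RPL41 (chr12:56116603-56116652, plus strand): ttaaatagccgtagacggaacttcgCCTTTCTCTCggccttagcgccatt
RPL36A (chrX:101390981-101391030, plus strand): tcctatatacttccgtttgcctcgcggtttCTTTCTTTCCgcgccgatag
RPS26 (chr12:56041888-56041937, plus strand): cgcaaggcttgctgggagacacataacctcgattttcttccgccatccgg

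A tract of this kind was present at the start of 54 of the 64 members that have a RefSeq promoter entry, or 84.4% (95% exact binomial interval 73.1% to 92.2%), against 25.2% of 27305 genes. RPS26, a protein at the mRNA exit channel, had none within the window searched. RPL13A, with the largest fall, and RPL36A, which rose, both carried a tract. The median log2 fold change, mutant over WT rescue, was -0.54 for the 53 tested members with a tract and -0.49 for the 9 tested members without it.

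Transcripts of the ribosomal protein genes took a smaller share of the counts in cells rescued with the RD2 mutant. Members took 1.83%, 1.83% and 1.85% of all counts in the mutant rescue, against 2.72%, 2.66% and 2.66% in the WT rescue. The mean share was 1.83% ± 0.0093 in the mutant rescue and 2.68% ± 0.034 in the WT rescue (SD, n = 3 each), a ratio of 0.684. Every mutant library lay below every WT library by far more than the spread within either rescue. In bulk RNA, less ribosomal protein mRNA per cell and fewer cells with a high content of it cannot be told apart. Since members were chosen with results of these data known, the summed share was given no p-value.

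**Figure D1:**
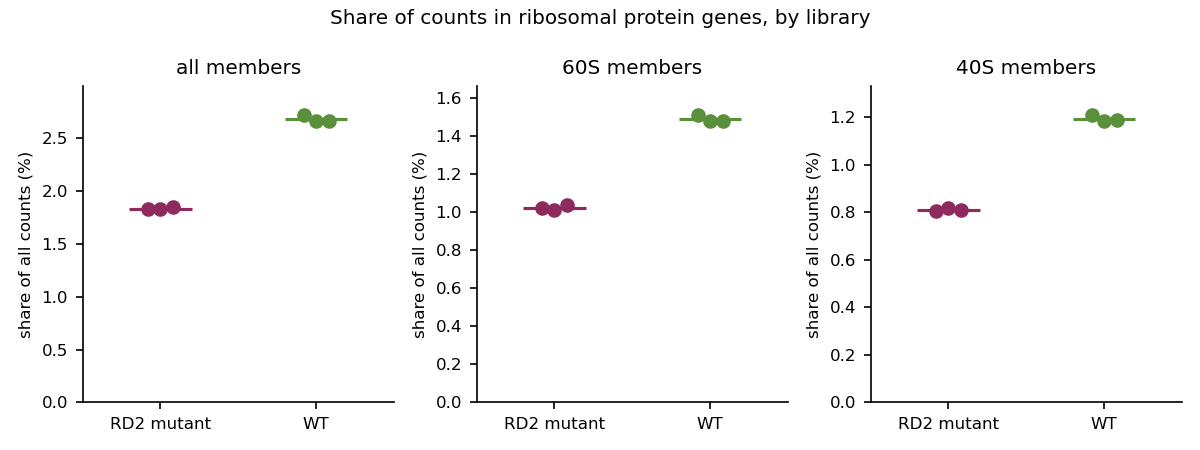
Share of all counts in ribosomal protein genes (%, vertical axis from 0) in each library of the RD2 mutant rescue (left) and the WT rescue (right), for all members, 60S members and 40S members; points are libraries and lines are means of 3. In each panel the mutant libraries lie together below the WT libraries.

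Both subunits took a smaller share. The 60S members took 1.01% to 1.04% of counts in the mutant rescue, against 1.47% to 1.51% in the WT rescue. The 40S members took 0.808% to 0.819% in the mutant rescue, against 1.18% to 1.21% in the WT rescue. The ratio of summed 60S to summed 40S counts was 1.24 to 1.28 in mutant libraries and 1.24 to 1.25 in WT libraries, so the groups overlapped. Averaging log2 CPM (counts scaled to library size with TMM factors) over the members of each subunit, which weights rare and abundant members alike, gave a 60S minus 40S difference of 0.028 to 0.088 in mutant libraries and 0.090 to 0.109 in WT libraries. The sign of the difference between rescues therefore depended on the weighting. The 5 most abundant members held 24.4% to 24.7% of member counts in the mutant rescue and 24.1% to 24.3% in the WT rescue.

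Of the 79 members, 76 passed the filter on low counts and were tested with edgeR's quasi-likelihood test, with Benjamini-Hochberg adjustment over all 12406 genes tested. At an adjusted p under 0.05, 71 members were lower, 1 was higher and 4 did not pass. The comparison was broad: 70.1% of all tested genes passed, and of all tested genes 34.8% were lower and 35.4% higher. The members' count of 71 of 76 lower was read against that 34.8%. Groups did not overlap, with the mutant lower, for 70 members, against 35.6% of all tested genes. When a change of at least 1.2-fold was required (edgeR's glmTreat), 64 members were lower, against 17.7% of tested genes, and 1 was higher.

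The falls differed in size. Among members with a mean of at least 1000 counts, log2 fold changes ran from -1.55 (RPL13A, SE 0.043) to -0.23 (RPS20, SE 0.030). The median member log2 fold change was -0.52 (quartiles -0.68 and -0.44), against 0.01 over all tested genes. It was -0.54 for the 45 tested 60S members and -0.50 for the 31 tested 40S members. Between -0.7 and -0.4 lay 42 members, 19 fell below that range and 15 above it, and only RPL13A was beyond -1. The order of members by level was nearly the same in the 2 rescues, with a Spearman rho of 0.991 between mean CPM in the mutant and WT rescues across 76 members, which come from the same libraries.

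**Figure D2:**
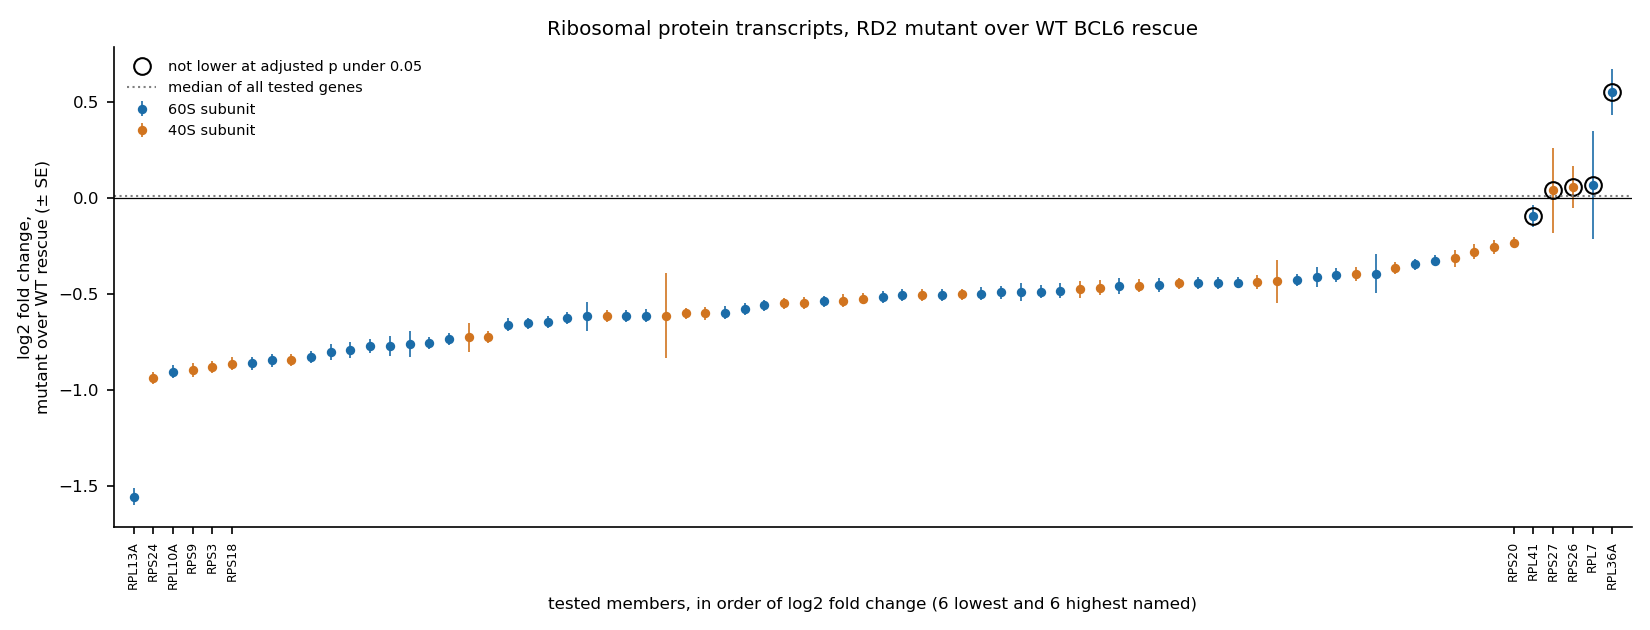
Log2 fold change, mutant over WT rescue, of the 76 tested members in order, with the 6 lowest and 6 highest named (points, with SE; blue 60S, orange 40S), with the median of all tested genes dotted at 0.01. Open circles mark the 5 members that were not lower at an adjusted p under 0.05, and RPL13A stands apart at -1.55.

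RPL13A fell furthest. It encodes a 60S surface protein that is also known, in myeloid cells, as the part of the GAIT complex that silences inflammatory mRNAs. It had 1071, 1206 and 1109 counts in the mutant rescue, against 3366, 3178 and 3457 in the WT rescue. The highest mutant library lay far below the lowest WT library. The log2 fold change was -1.55 ± 0.043 (SE; edgeR adjusted p 1.6e-17), a level 0.341 of that in the WT rescue. RPL13A (ENSG00000142541.16) lies at chr19:49487554-49492308 on GRCh38. FLT3LG, a neighbouring cytokine gene, had a log2 fold change of 0.63. Among rows named as RPL13A pseudogenes that were tested, RPL13AP3 fell (log2 fold change -0.91, edgeR adjusted p 0.0218), while RPL13AP20 (-0.76, adjusted p 0.051) and RPL13AP6 (-0.29, adjusted p 0.302) did not pass.

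Among the other strong responders, RPS24, a 40S protein whose loss causes Diamond-Blackfan anaemia, had 6550, 6596 and 6428 counts in the mutant rescue, against 12834, 12254 and 12620 in the WT rescue (log2 fold change -0.94 ± 0.030). RPL10A, which forms the L1 stalk of the 60S subunit where spent tRNA leaves, had 3143, 3225 and 3197 counts in the mutant rescue and 6160, 5708 and 6133 in the WT rescue (-0.90 ± 0.032). RPS18, a protein of the 40S head, had 7711, 8428 and 7799 counts in the mutant rescue and 14936, 14449 and 14403 in the WT rescue (-0.86 ± 0.035). For these 3 genes the gap between the rescues was larger than the spread of libraries within either.

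The ribosomal stalk recruits the GTPases that drive elongation, and all 4 of its genes fell. RPLP0, the base of the stalk, had 11230, 11526 and 10895 counts in the mutant rescue, against 16699, 15925 and 16517 in the WT rescue (log2 fold change -0.54). The acidic protein RPLP1 had 10681, 10361 and 11778 counts in the mutant rescue and 16079, 15260 and 15012 in the WT rescue (-0.49). Its partner RPLP2 had 10499, 10343 and 11664 counts in the mutant rescue and 15628, 14600 and 14698 in the WT rescue (-0.46). In RPLP1 and RPLP2 alike, mutant replicate 3 was the highest mutant library and still below all WT libraries. RPL12, which sits beside the stalk base, had 1228, 1223 and 1206 counts in the mutant rescue and 2220, 2062 and 2079 in the WT rescue (-0.79).

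RPL5 and RPL11 travel with 5S rRNA and, when ribosome assembly is disturbed, bind and inhibit MDM2, the ubiquitin ligase of p53. RPL5 had 8450, 9100 and 8615 counts in the mutant rescue, against 14959, 14460 and 14987 in the WT rescue (log2 fold change -0.75 ± 0.032). RPL11 had 17731, 17957 and 17483 counts in the mutant rescue, against 23409, 21993 and 22559 in the WT rescue (-0.34 ± 0.028). Both fell without overlap between rescues, although these partners stood on opposite sides of the members' median.

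At the peptide exit tunnel and its rim, all 9 genes fell, between -0.83 for RPL4, which lines the tunnel, and -0.32 for RPL35, near its mouth. RPL26, a rim protein that also binds p53 mRNA, had 5022, 5240 and 5154 counts in the mutant rescue, against 8036, 7815 and 8030 in the WT rescue (-0.62). RPL17, beside the tunnel, had 322, 313 and 335 counts in the mutant rescue and 571, 513 and 569 in the WT rescue (-0.76). RPL22, an RNA-binding protein of the rim that is deleted or mutated in some T cell leukaemias, had 2604, 2803 and 2654 counts in the mutant rescue and 3846, 3622 and 3619 in the WT rescue (-0.45). The rescues did not overlap for any of these genes.

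Near the peptidyl transferase centre and the tRNA sites, 3 of 4 genes fell and RPL36A rose. RPL10, a late-joining 60S protein mutated in some T cell leukaemias, had 5303, 5505 and 5190 counts in the mutant rescue, against 7407, 6947 and 7495 in the WT rescue (log2 fold change -0.44). RPL3, which reaches into the catalytic centre, changed by -0.73 and RPL8, by its side, by -0.50.

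RPL36A, whose protein contacts tRNA at the exit site, was the only member called higher. It had 190, 177 and 158 counts in the mutant rescue, against 134, 95 and 131 in the WT rescue (log2 fold change 0.55 ± 0.12, edgeR adjusted p 3.31e-04). The groups did not overlap, but the lowest mutant library lay close to the highest WT library. RPL36A (ENSG00000241343.9) lies at chrX:101390824-101396154 on GRCh38, and all of its 50-base coding windows also occur in other annotated genes. Its neighbours moved in both directions: GLA had a log2 fold change of 0.60, HNRNPH2 of -0.94 and BTK of -0.03. The read-through row RPL36A-HNRNPH2 was listed at 0. The strand setting of the counting was not given, so reads from either strand of a gene cannot be told apart.

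In the 40S subunit, all 5 genes of the decoding and mRNA entry sites fell. RPS3, an RNA-binding protein at the entry channel, had 14340, 15013 and 14294 counts in the mutant rescue, against 27834, 25813 and 27112 in the WT rescue (log2 fold change -0.88). RPS9, also at the entry channel, had 4217, 4369 and 4299 counts in the mutant rescue and 8640, 7570 and 7918 in the WT rescue (-0.89). RPS23, in the decoding centre, had 7612, 7940 and 7505 counts in the mutant rescue and 12330, 11326 and 11489 in the WT rescue (-0.60). RPS2, at the entry channel, had 3088, 2929 and 2884 counts in the mutant rescue and 4337, 4170 and 4459 in the WT rescue (-0.53). RPS3, RPS9, RPS23 and RPS2 all lay below the members' median of -0.52. RPS15, of the 40S head and mutated in some chronic lymphocytic leukaemias, had 2678, 2404 and 2718 counts in the mutant rescue and 3397, 3045 and 3309 in the WT rescue (-0.31). RPS15 was thus the least changed of the group, and its rescues still did not overlap.

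At the mRNA exit and platform 4 of 5 genes fell. RPS14, whose loss underlies the anaemia of the 5q- syndrome, had 5959, 6240 and 6164 counts in the mutant rescue, against 10632, 9726 and 10185 in the WT rescue (log2 fold change -0.72). RPSA, known also as the laminin receptor, had 3412, 3620 and 3424 counts in the mutant rescue and 4837, 4678 and 4724 in the WT rescue (-0.44). RPS26 had 154, 147 and 123 counts in the mutant rescue and 134, 130 and 146 in the WT rescue. All coding windows of RPS26 are shared with other genes, so its level is uncertain. Its rescues overlapped and its log2 fold change of 0.06 did not pass (edgeR adjusted p 0.654).

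All 6 genes of the 40S head, beak and foot were called lower. RPS6, the substrate of S6 kinase, was the most abundant member per length in both rescues and had 34900, 37382 and 35052 counts in the mutant rescue, against 55519, 53229 and 54964 in the WT rescue (log2 fold change -0.60). RPS19, the gene most often mutated in Diamond-Blackfan anaemia, had 17860, 18002 and 17869 counts in the mutant rescue and 25557, 23302 and 24735 in the WT rescue (-0.44). Both of these abundant transcripts were separated cleanly between rescues.

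RPS12, in the beak, had 6088, 6695 and 6097 counts in the mutant rescue and 8548, 7987 and 8429 in the WT rescue (log2 fold change -0.39). RPS27A, made as a fusion with ubiquitin, had 2193, 2297 and 2158 counts in the mutant rescue and 2663, 2585 and 2726 in the WT rescue (-0.25). RPS10, in the beak, had 51, 35 and 29 counts in the mutant rescue and 77, 53 and 47 in the WT rescue. The rescues overlapped, and the log2 fold change of RPS10, -0.61 ± 0.22 (edgeR adjusted p 0.0194), lost its call without mutant replicate 3 (-0.45, adjusted p 0.0981) or without WT replicate 1 (-0.39, adjusted p 0.158).

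The smallest fall among abundant members was that of RPS20, of the 40S head, with 14184, 14633 and 14272 counts in the mutant rescue, against 17697, 16360 and 16857 in the WT rescue (log2 fold change -0.23 ± 0.030). Of the 17 tested genes linked to Diamond-Blackfan anaemia, 15 fell, and RPS26 and RPS27 did not pass. All 5 members listed for somatic mutation in lymphoid cancer (RPL5, RPL10, RPL11, RPL22 and RPS15) fell, with a median of -0.44. Both counts stand beside 71 of all 76 tested members that fell, with a median of -0.52, so neither sets disease-linked members apart.

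The members that did not fall all had a mean under 1000 counts. RPL41, the smallest ribosomal protein, had 660, 684 and 660 counts in the mutant rescue and 749, 725 and 674 in the WT rescue (log2 fold change -0.09, edgeR adjusted p 0.161). RPS27, a zinc-binding protein of the 40S subunit, had 30, 40 and 24 counts in the mutant rescue and 34, 30 and 28 in the WT rescue (0.04, adjusted p 0.879). RPL7, of the 60S subunit, had 16, 26 and 35 counts in the mutant rescue and 33, 18 and 23 in the WT rescue (0.07, adjusted p 0.839). The rescues overlapped for all 3. Of the 3 members that were not tested, RPL21 was listed at 0 in all 6 libraries, where a count of 0 allows up to 0.109 to 0.114 CPM (3 counts, counting error only). All coding windows of RPL21 are shared with other genes and the handling of such reads was not given, so this is a limit on counted reads and not on expression. RPS4Y2 had 0, 1 and 3 counts in the mutant rescue and 2, 1 and 4 in the WT rescue. All 63 members with a mean of at least 1000 counts fell, between -1.55 and -0.23; of the 13 tested below that level, 8 were lower, 1 was higher and 4 did not pass.

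Low counts went with shared sequence. Members were cut into 50-base windows of coding sequence, and the share of windows found in another annotated gene, pseudogenes included, was set against the level per length. In the WT rescue this level had a Spearman rho of -0.74 with the shared share across the 79 members, a description over genes of the same libraries. Of the 14 members under 100 CPM per kb of coding length in the WT rescue, 13 had at least 90% of windows shared. RPS6, with 15.5% of windows shared, stood at 1790 CPM per kb in the mutant rescue and 2713 in the WT rescue. RPS10, with 100%, stood at 2.89 CPM per kb in the mutant rescue and 4.42 in the WT rescue. RPL7, with 99.7%, stood at 1.29 CPM per kb in the mutant rescue and 1.23 in the WT rescue. The rule for reads that match several places was not given, so levels of such members are uncertain.

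The fold changes were also set against the share of windows. All 39 tested members with under 50% of windows shared fell (-0.94 to -0.32, median -0.55). Of the 37 with 50% or more, 32 fell, 1 rose and 4 did not pass (median -0.47). All 63 tested members under 90% fell, while the 13 at or above 90% held 8 that fell, the 1 that rose and the 4 that did not pass. RPL13A had 74.5% of windows shared, and the part of shared sequence in its value was not tested. Across the 76 tested members the rho of the log2 fold change was 0.16 with the share of windows, -0.35 with coding length and -0.27 with WT level. The 27 tested members that hold a snoRNA gene in their span had a median of -0.61 and the 49 without had -0.50.

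**Figure D3:**
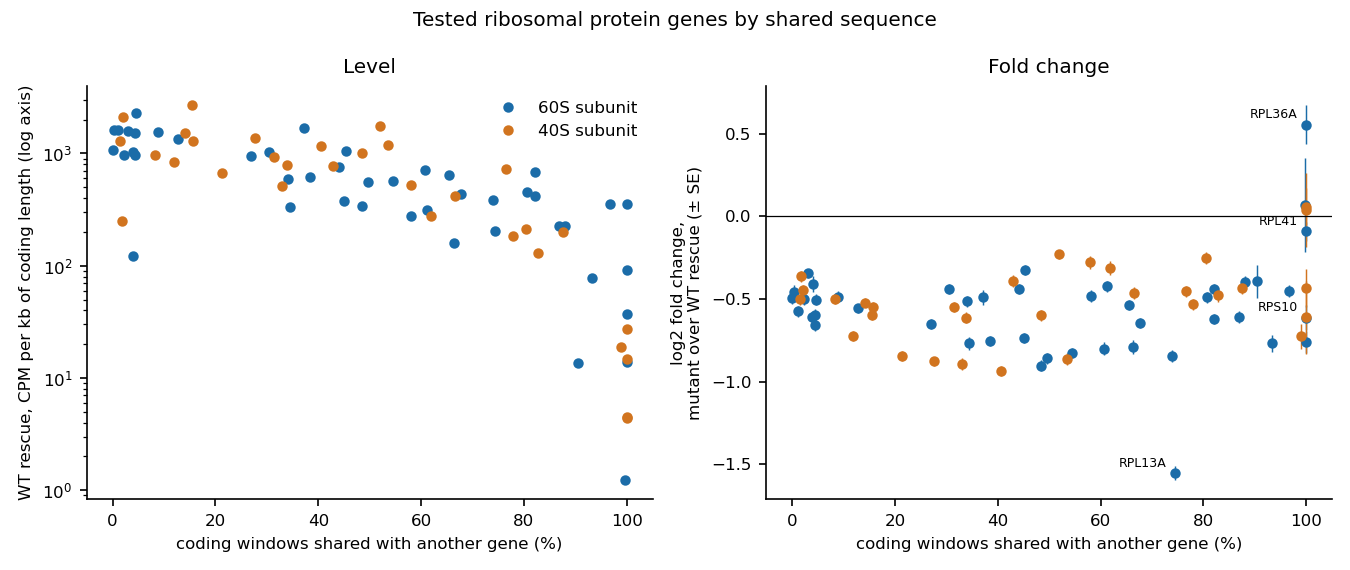
Level in the WT rescue (left, CPM per kb of coding length, log axis) and log2 fold change with SE (right, mutant over WT rescue) of tested members against the percentage of 50-base coding windows shared with another gene; blue 60S, orange 40S. Levels drop toward 100% shared, and all members with under 50% shared lie below 0 at right.

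Ratios within 5 of 6 paralogue pairs differed without overlap between the rescues. Among all tested single genes, 35.6% did not overlap with the mutant lower. That share covers falls alone, while the pairs were counted in either direction. The share among ratios of other gene pairs was not computed, so the count of pairs has no direct background. The log2 ratio of RPS4X to its Y-linked paralogue RPS4Y1, both 40S proteins, averaged 0.95 ± 0.020 in the mutant rescue and 1.43 ± 0.0097 in the WT rescue (SD, n = 3 each). RPS4X had 7808, 8091 and 7844 counts in the mutant rescue and 14699, 13735 and 14439 in the WT rescue, and RPS4Y1 had 4065, 4129 and 4113 in the mutant rescue and 5506, 5081 and 5352 in the WT rescue. Both fell, RPS4X by more (log2 fold changes -0.84 and -0.36). The other 4 were RPL26 to RPL26L1 (mutant minus WT -0.58), RPL39 to RPL39L (-0.52), RPL22 to RPL22L1 (0.25) and RPL36A to RPL36AL (0.82). Coding windows shared with other genes made up 100% in RPL36A and RPL39, 96.7% in RPL22 and 82.1% in RPL26. The part of shared sequence in these ratios was not tested. For RPS27 to RPS27L, the rescues overlapped (-0.32). With 3 libraries against 3, the exact two-sided permutation test reached 0.1, the smallest p it allows, for 5 of the 6 pairs (0.12 after adjustment over 6), and 0.3 for the RPS27 pair.

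Among paralogues outside the rule, 4 of 6 tested fell, 1 rose and 1 did not pass, with a median log2 fold change of -0.18. Over all tested genes, 34.8% were lower and 35.4% higher. RPL22L1 averaged 17.1 CPM in the mutant rescue and 27.8 in the WT rescue (-0.70), RPL7L1 averaged 31.6 CPM in the mutant rescue and 38.2 in the WT rescue (-0.27), and RPL36AL 93.1 CPM in the mutant rescue and 110.9 in the WT rescue (-0.25). RPS27L, a p53 target, rose to 73.1 CPM in the mutant rescue, against 58.1 in the WT rescue (0.33). Of 30 rows named as ribosomal protein pseudogenes or read-through genes, 16 were tested: 7 fell, 1 rose (RPL32P3, 0.36) and 8 did not pass, a count of falls near the 34.8% of all tested genes that were lower. Together these rows held 2801 to 2875 counts in mutant libraries and 3623 to 3829 in WT libraries, far below the members' 480896 to 493823 in mutant libraries and 704777 to 750475 in WT libraries.

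**Figure D4:**
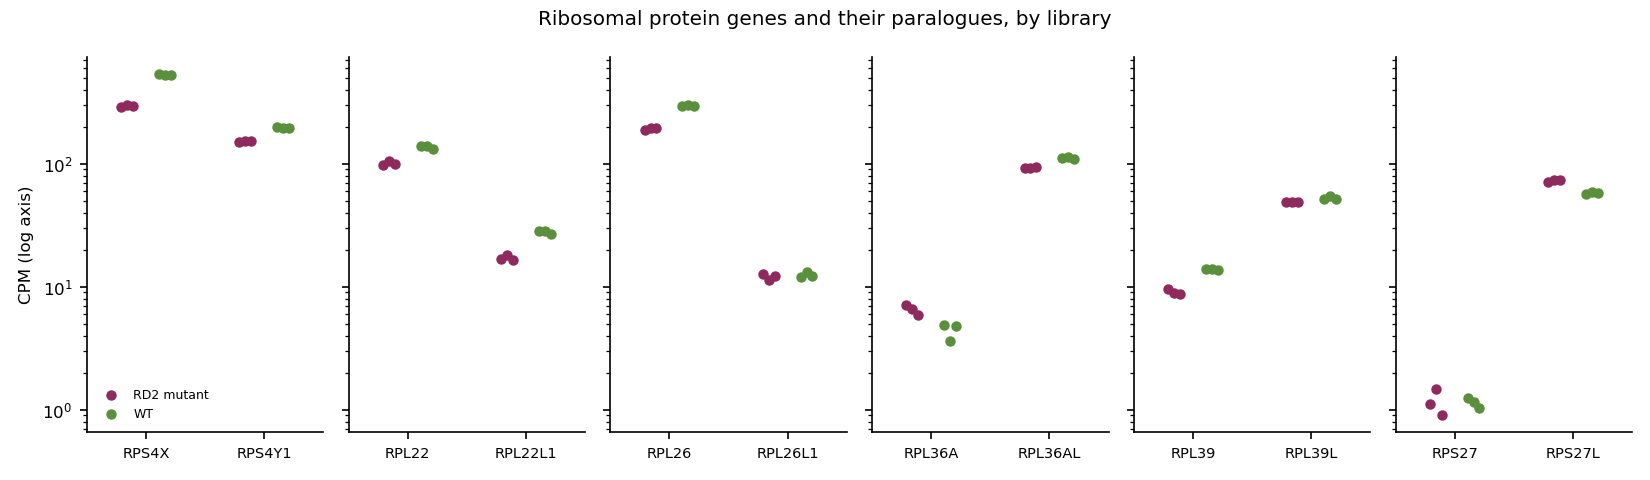
CPM per library (log axis) of 6 members and their paralogues, RD2 mutant left of WT in each gene. RPS4X and RPS4Y1 both lie lower in the mutant rescue, while RPL36A and RPS27L lie higher in the mutant rescue.

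Other mRNAs known to carry TOP tracts were mostly lower too. Of 23 translation factors and related genes of this class, 20 fell, 0 rose and 3 did not pass by edgeR's test, with a median of -0.39, where 34.8% of all tested genes fell. The count that rose was also 0 at an unadjusted p under 0.05 and by DESeq2 and limma-voom, and was 1 without mutant replicate 3. EIF4B, a cofactor of the helicase eIF4A, averaged 128.2 CPM in the mutant rescue and 263.8 in the WT rescue (-1.04). EEF1G, of the elongation factor 1 complex, averaged 168.9 CPM in the mutant rescue and 322.7 in the WT rescue (-0.93). TPT1, a growth-linked protein, changed by -0.77 and PABPC1, the poly(A)-binding protein, by -0.71. FAU, which carries a ribosomal protein fused to a ubiquitin-like sequence and lies outside the symbol rule, changed by only -0.14. HNRNPA1 (0.13), EIF2S3 (0.03) and EIF4A2 (-0.03) did not pass.

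Carriers and importers that take new ribosomal proteins to the nucleus were mostly lower: 11 of 14 fell, 2 rose and 1 did not pass, with a median of -0.38, where 34.8% of all tested genes were lower and 35.4% higher. IPO4 averaged 77.5 CPM in the mutant rescue and 156.6 in the WT rescue (-1.02). The importin IPO7 changed by -0.73, HEATR3, which escorts RPL5, by -0.72 and GRWD1, a chaperone of RPL3, by -0.55. TSR2, the chaperone of RPS26, rose (0.14), as did RPS19BP1 (0.18). RNA polymerase I makes the rRNA that members assemble on: 8 of 15 of its subunits and factors fell, 3 rose and 4 did not pass (median -0.20), beside the same shares of 34.8% and 35.4% over all tested genes. TAF1D (-0.89), POLR1E (-0.70), POLR1A (-0.53) and POLR1C (-0.52) fell. TAF1A (0.22), TTF1 (0.21) and ZNRD1 (0.22) rose, while TAF1C (0.19), TAF1B (0.04) and UBTF (0.03) did not pass.

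Regulators of ribosomal protein transcription and of TOP mRNA translation showed no common direction. Of 24 tested, 11 fell, 9 rose and 4 did not pass, with a median of 0.03. Over all tested genes, 34.8% were lower and 35.4% higher. LARP1, which binds TOP tracts, averaged 493.0 CPM in the mutant rescue and 736.1 in the WT rescue (-0.58). SSB, the La protein, changed by -0.61. MYC averaged 186.3 CPM in the mutant rescue and 264.9 in the WT rescue (-0.51). TIA1, an RNA-binding protein of stress granules, rose (0.46), as did GABPB1 (0.42) and GABPA (0.18), subunits of the ETS factor GABP, and YY1 (0.27). EIF4EBP1 (0.33), RPS6KA1 (0.28), TIAL1 (0.19), RPS6KB1 (0.15) and RPTOR (0.09) rose too. EIF4EBP2 (-0.28), RPS6KB2 (-0.26), SP1 (-0.16), MTOR (-0.12), LARP4 (-0.12), RPS6KA3 (-0.11), CNBP (-0.09) and MAX (-0.08) also fell.

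**Figure D5:**
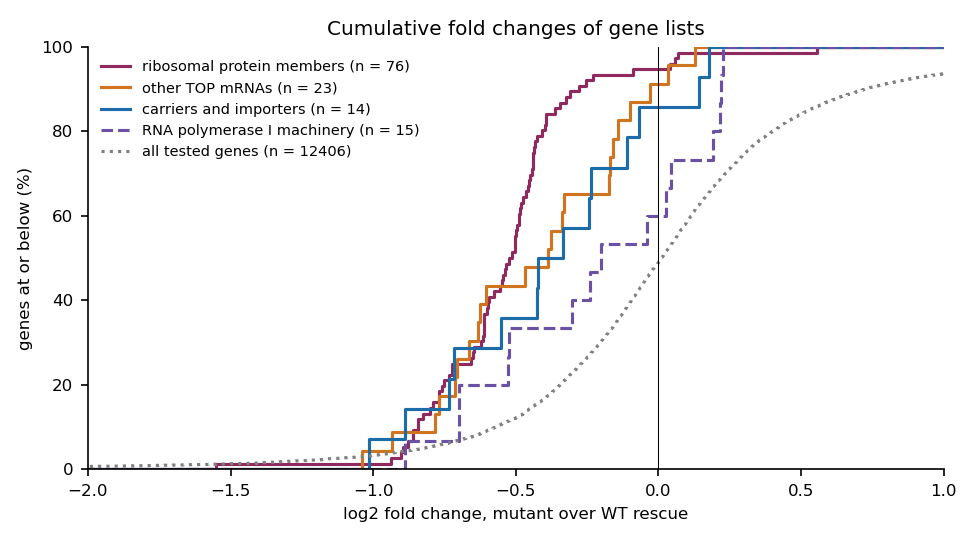
Cumulative percentage of genes (vertical axis) at or below each log2 fold change (mutant over WT rescue) for the members, 3 other lists and all tested genes. The members' curve crosses 50% at -0.52 and that of all tested genes at 0.01, with the other lists between.

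Promoters of the 64 members with an entry, from 250 bases before to 50 after the start, were searched on both strands for motifs of known factors. The ETS motif CCGGAAG, bound by GABP, was found in 34.4% of members and 12.2% of all genes, and the YY1 motif AAGATGG in 12.5% of members and 7.11% of all genes. The exact binomial interval of the members' share lay above the all-gene share for ETS (22.9% to 47.3%). For YY1 the interval (5.55% to 23.2%) held the all-gene share. From 100 bases before the start, YY1 was in 10.9% of members (4.51% to 21.2%) and 4.28% of all genes, just outside the interval. The SP1 motif GGGCGG was found in 56.3% of members and 48.3% of all genes, the MYC E-box CACGTG in 6.25% of members and 8.77% of all genes, and TATAAA in 7.81% of members and 14.0% of all genes. The members' intervals held the all-gene share for SP1 (43.3% to 68.6%), CACGTG (1.73% to 15.2%) and TATAAA (2.59% to 17.3%). These motifs were therefore not shown to be more or less frequent in members. The core of the BCL6 site, TTCCTAGAA, was in 0 of 64 members, which allows up to 5.60% (exact binomial), and in 0.472% of all genes, and its looser form TTCNNNGAA, which includes it, was in 3.13% of members and 9.38% of all genes. The members' interval for the looser form (0.381% to 10.8%) also held the all-gene share, so fewer BCL6 sites in members were not shown. The median log2 fold change was -0.61 for members with the ETS motif and -0.49 without it, -0.60 with the SP1 motif and -0.47 without it, and -0.58 with the YY1 motif and -0.51 without it. It was -0.73 for the 5 members with TATAAA and -0.50 without it, and -0.44 for the 4 members with CACGTG and -0.54 without it. A match is a description of these windows and not evidence of binding.

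BCL6 itself had 14166, 13726 and 13827 counts in the mutant rescue, against 19069, 16998 and 18789 in the WT rescue (log2 fold change -0.38, edgeR adjusted p 7.9e-10); transcripts of the construct and of the endogenous gene are counted together, and the part of this difference in the members' fall was not tested. All 7 B cell markers were counted, with a summed level of 3409 to 3515 CPM in the mutant rescue and 3879 to 3962 in the WT rescue, 4 of them higher and 3 lower. MS4A1, which encodes CD20, carried the difference, with 107.4 CPM in the mutant rescue and 583.1 in the WT rescue (log2 fold change -2.44). Without MS4A1, the other 6 summed to 3299 to 3413 CPM in the mutant rescue and 3279 to 3396 in the WT rescue, which overlapped. Summed T cell markers stood at 3.17 to 4.17 CPM in the mutant rescue and 3.75 to 4.29 in the WT rescue, with CD3E and CD2 at 0. Summed myeloid markers stood at 0.338 to 0.709 CPM in the mutant rescue and 0.110 to 0.306 in the WT rescue. Epithelial and stromal markers, nearly all EPCAM, summed to 3.66 to 4.36 CPM in the mutant rescue and 15.6 to 16.8 in the WT rescue. Labels do not say whether replicates came from separate cultures, so p-values measure the spread between these libraries only.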

How the data were processed

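Total RNA libraries (Illumina TruSeq, per the labels' protocols) were counted per gene symbol. The authors deposited raw counts for 6 libraries, and CASAVA 1.8.2, STAR and edgeR with build hg19 are named in the submitters' processing notes. No counter, annotation or strand setting is named in the sources used here, nor how reads with several matches were handled. From these counts, edgeR 4.0.16 (R 4.3.3) was fitted with TMM scaling, its default filter on low counts, robust quasi-likelihood dispersions and no covariate, with an adjusted p threshold of 0.05. TMM-scaled CPM were computed for display, and levels were compared between genes per kb of coding length. Paralogue ratios used a pseudocount of 0.5 counts.

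Names and coding sequence came from GENCODE v29 (21525 of 23250 symbols matched) and start sites from RefSeq, both on GRCh38, for sequence only. Members and lists were chosen with earlier results of these data known. Values per library were given for members of the stalk, 5S RNP, decoding and head groups, a few disease-linked members, the 6 lowest and 6 highest fold changes, and members that were higher, did not pass or were not tested. Of other lists, up to 4 genes with the smallest p and those against the list's median were named; RPL3, RPL4, RPL8, RPL35, FAU, RPL32P3, MS4A1, the regulators that rose other than TIA1, EIF4A2, the RPL13A pseudogenes the paralogue pairs and the neighbours were named after their values were seen.

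Alternatives tried were scaling by RLE, by upper quartile or by library size, TMM without the members, limma-voom 3.58.1, DESeq2 1.42.0, the likelihood ratio test, other filters, glmTreat at 1.2-fold, length and GC offsets, a replicate block and leaving out each library. The fit was tested on simulated data. Protein sequence was not used here, and the values of a few members are not reported here.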

Additional observations from a re-analysis of the deposited data

How the results depend on the processing

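Members called lower numbered 71 in every scaling, filter and tool tried, 70 to 71 when a library was left out and 64 with glmTreat at 1.2-fold; RPL36A was higher in each. Of the 72 called members, 71 kept their call and sign in all 17 settings other than glmTreat, RPS10 being the exception. The median member log2 fold change lay between -0.54 (length and GC offsets) and -0.49 (library size). Low-count members turned their sign when a library was left out: RPL7 ranged from -0.22 to 0.32, RPS26 from -0.0071 to 0.14 and RPS27 from -0.17 to 0.20, none past the threshold.

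The difference in log2 60S over 40S ratio was 0.016 from sums and -0.048 from mean log2 CPM. TTCNNNGAA was found in 0 members in the window from 100 bases before the start, which allows up to 5.60% (exact binomial), against 4.29% of all genes. With glmTreat, counts were 1 paralogue lower, 3 regulators lower and 2 higher, 0 carriers higher, and 5 polymerase I genes lower and 0 higher. Pseudogene rows higher numbered 2 with no filter, 0 with glmTreat and 1 to 2 with a library left out; other TOP mRNAs higher numbered 0 to 1.

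Same-numbered libraries deviated together with correlations of 0.136, 0.172 and -0.055, so pairing by number was neither shown nor excluded. With a replicate block, 71 members were lower, 1 was higher and the median was -0.52. Calls over all genes then numbered 9285, against 8702 without the block.

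Limits are set by depth for members under about 100 counts (RPS10, RPS27, RPL7), by shared sequence for those near 100% shared windows, and by 3 libraries of each rescue in 1 cell line.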
